A study of Mus musculus with 6 samples.

Results

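The genes described here are a set of astrocyte and optic nerve head markers, measured with Affymetrix mouse arrays in the posterior eye of embryos at day 15.5. The set has 10 genes, chosen by name: Pax2, Gfap, Slc1a3, Fabp7, Olig1, Pdgfra, S100b, Aqp4, Apoe and Aldh1l1. The platform's annotation table gave 22 probe sets to 9 of them, out of 45101 probe sets on the array, and Pax2 was not analysed here. Oa1-/- eyes, which lack the pigment cell receptor Oa1 (now named Gpr143), were compared with wild-type (WT) eyes. There were 3 arrays per genotype, and the RNA of an array came from the pooled eyes of 6 embryos carried by a single dam. The labels state that the anterior segments were dissected away and that RNA came from what remained. Markers of the lens and of surface epithelium were measured nonetheless: all 8 of each list were bright enough to test. Their summed signals ran from 44520 to 72596 (lens) and from 6701 to 12540 (epithelium) in WT. In Oa1-/- they ran from 62330 to 71760 and from 7377 to 9239, and 0 of the markers had an unadjusted p below 0.05. The log2 change, Oa1-/- minus WT, was positive for all 8 lens markers (median 0.12). It was positive for 2 and negative for 6 epithelium markers (median −0.17). The part of such tissue in the other results was not tested. Neither the strain nor the sexes of the embryos is stated in the labels, and the same holds for how much of the gene was removed.

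Astrocytes of the retina are not made by the retina itself. Their precursors arise in the optic stalk, which carries the transcription factor Pax2, and enter the eye at the optic disc along the axons of retinal ganglion cells. On the way they depend on platelet-derived growth factor A, released by neurons and read by the receptor Pdgfra. Early glial genes such as Fabp7 and Slc1a3 come on in precursors and radial glia, whereas Gfap, Aqp4, S100b and Aldh1l1 mark astrocytes as they mature. Several of the genes are used elsewhere too: Slc1a3 by retinal progenitors and Müller glia, Pdgfra by mesenchyme and Apoe by macrophages.

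The values are MAS5 signals, the summary intensity of a probe set on a linear scale. Probes differ in brightness, so differences were read between arrays, and a signal does not rank 1 gene against another. Probe sets were compared by signal for the brightness limit, the brightest probe set of a gene, the bacterial controls and the sums over lists. The brightest probe sets weigh most in those sums. Gpr143 itself measured 250, 257 and 246 across WT arrays against 28.3, 39.1 and 6.02 across Oa1-/- arrays, so every array followed its label. Median signals were 108 to 121 in WT and 93.6 to 129 in Oa1-/-. Of the arrays, WT replicate 3 had almost no Y-linked signal (Eif2s3y at 9.26, against 406 or more on the others). The sex-linked gene Xist had log2 changes (Oa1-/- minus WT) of −0.45, −0.49 and −1.68 on its probe sets. On the last of these, 1427262_at, the groups did not overlap (694, 1390 and 2044 in WT against 330, 341 and 491 in Oa1-/-). On the others they overlapped. A different mix of sexes in the pools cannot be told apart from genotype, and its part in the results was not tested. Oa1-/- replicate 1 had the highest 18S ribosomal RNA control (6348, against 1476 to 2618). The labels name no batches.

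Not every marker gave a signal that could be tested. A probe set was tested if its mean over all arrays lay above the 40th percentile, which corresponds to a signal of about 63.7. Of the 22 probe sets, 10 passed, from 5 genes (Slc1a3, Fabp7, Pdgfra, Apoe and Aldh1l1). Just inside the limit lay Pdgfra 1421916_at, with a signal equivalent of 75.9 for its mean, and just outside lay Slc1a3 1439072_at, with 61.9. All probe sets of Gfap, Aqp4, S100b and Olig1 were too dim to be tested by their mean over all arrays. For Gfap 1426508_at that rested on the Oa1-/- arrays, since its WT mean lay above the limit. Brightness depends on the probe as well as on the RNA, and the 6 probe sets of Slc1a3 fell on both sides of the limit, so a dim probe set does not give the level of its gene. For Gfap, Aqp4, S100b and Olig1 the label of the set could therefore not be checked on these arrays.

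No tested marker passed the test between the genotypes. After Benjamini-Hochberg adjustment in limma, 0 of 10 marker probe sets passed a threshold of 0.05, and 0 of the 27029 probe sets tested on the whole array did (0% called). Gpr143 itself, with a log2 change of −2.82, had an adjusted p of 0.287 in limma and was not called. The lack of calls therefore does not show that the markers were unchanged. At an unadjusted p below 0.05 there was 1 of 10, a probe set of Slc1a3 that was higher in Oa1-/-, where 4.11% of everything tested lay below that p. That probe set was also the only 1 of 10 with separate groups, beside 10.2% with separate groups over the whole array. The log2 change, Oa1-/- minus WT, was positive for 5 and negative for 5, with a median of 0.01, beside −0.01 over all probe sets tested. One of the negative values, that of Pdgfra 1421916_at, came from a probe set that passed the brightness limit only through its WT arrays. Slc1a3 1439072_at and 1440491_at and Gfap 1426508_at had WT means above the limit and were left out through their Oa1-/- arrays. Their log2 changes were −0.40, −0.51 and −0.36, so the even split depends on the limit. With no filter the median over 22 marker probe sets was −0.02, beside 0.004 over all probe sets. The shares of the markers are counts over few probe sets, several of which report on the same gene.

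Fabp7 encodes the brain-type fatty acid binding protein of radial glia and glial precursors, and it had the widest spread within groups of the tested markers on the log2(signal + 16) scale. Its only probe set, 1450779_at, read 724, 1484 and 1991 on the WT arrays and 2175, 1480 and 1640 on the Oa1-/- arrays. WT replicate 1 stood well below the other 5 arrays, while WT replicates 2 and 3 lay within the range of the Oa1-/- arrays. The group means were 1400 ± 638 (SD, n = 3) for WT against 1765 ± 364 (SD, n = 3) for Oa1-/-. The log2 change was 0.43 with a 95% interval from −0.32 to 1.17 (unadjusted p = 0.223, adjusted p = 0.985 in limma). On that scale, 94.3% of all tested probe sets varied less within groups than Fabp7. In WT the highest array exceeded the lowest by 2.75-fold, and in Oa1-/- by 1.47-fold.

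The difference in Fabp7 rested on single arrays. Without WT replicate 1 the log2 change was 0.02 (unadjusted p = 0.924 in limma), and without WT replicate 3 it was 0.74 (unadjusted p = 0.0395, adjusted p = 0.911). It was 0.27 without Oa1-/- replicate 1, the array with the highest Fabp7 and the highest 18S control signal, and the part of that control in the result was not tested. In a mixed tissue such as this, fewer cells of a type and less RNA per cell cannot be told apart. Other genes of fatty acid binding and of the nuclear receptors that fatty acids act on gave 1 of 8 tested with an unadjusted p below 0.05, beside 3.65% of the brightest probe sets of all genes. That was Rxrb, a retinoid X receptor, at 2143 ± 451 (SD, n = 3) for WT against 1468 ± 278 (SD, n = 3) for Oa1-/-, with overlapping groups. The related receptor Rxrg had the next smallest p, with a log2 change of 0.31 (unadjusted p = 0.143 in limma) and overlapping groups.

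**Figure D1:**
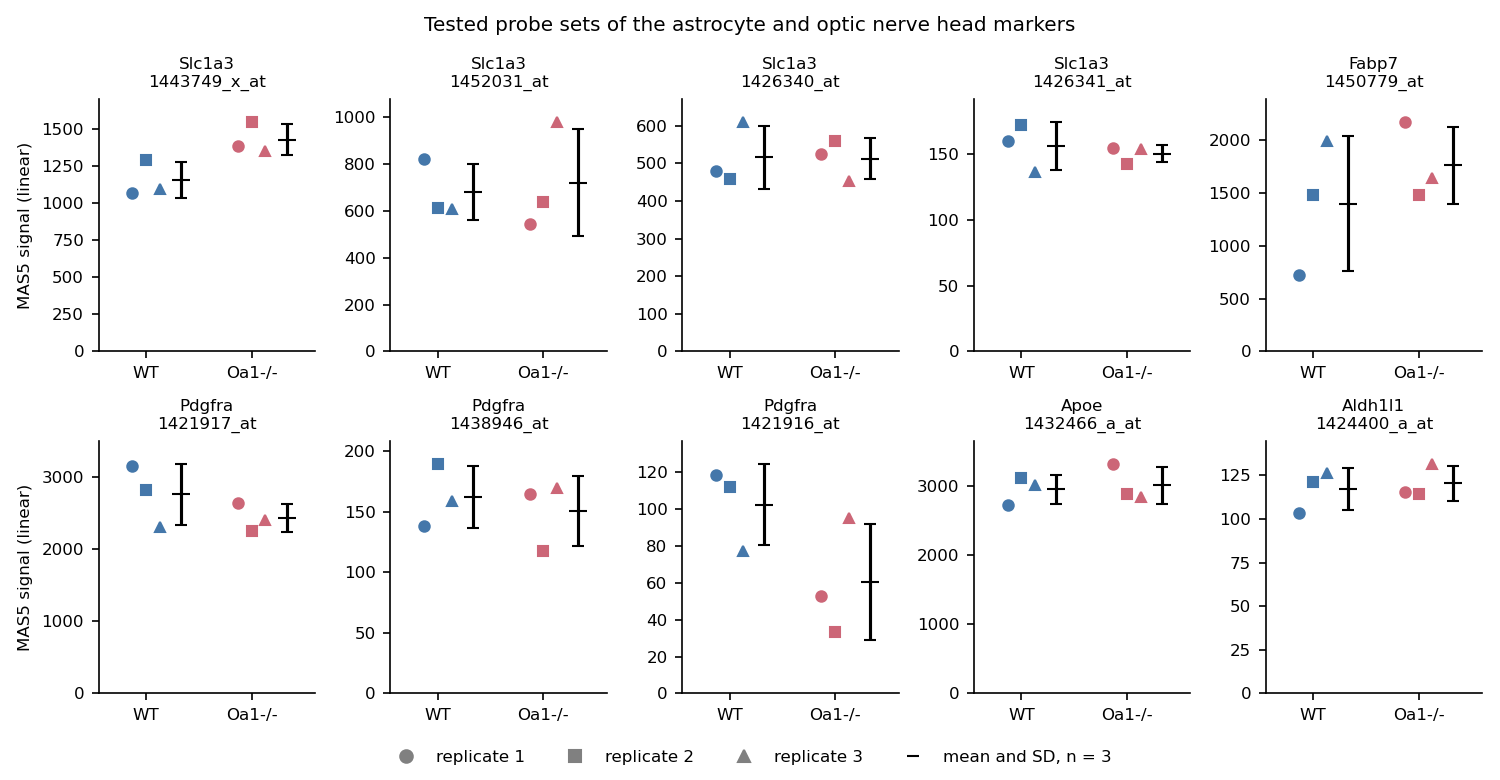
MAS5 signal (linear scale, from 0) of the 10 tested marker probe sets on each array, with WT in blue, Oa1-/- in red, a symbol for each replicate number, and the mean with SD (n = 3) in black. Fabp7 spreads from 724 to 1991 within WT, and Slc1a3 1443749_x_at is the probe set whose groups do not overlap.

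Slc1a3 encodes the glutamate transporter GLAST, which clears glutamate and marks radial glia, retinal progenitors and Müller glia. Its brightest probe set, 1443749_x_at, gave WT signals of 1069, 1292 and 1096, and Oa1-/- signals of 1381, 1545 and 1351. All 3 Oa1-/- arrays lay above all 3 WT arrays, with the closest pair only 1292 and 1351. The means were 1152 ± 122 (SD, n = 3) and 1426 ± 105 (SD, n = 3), a log2 change of 0.31 with a 95% interval from 0.06 to 0.55. The unadjusted p was 0.0189 and the adjusted p 0.985 in limma, so the difference did not pass. The two-sided exact permutation p was 0.1, the smallest that 3 arrays against 3 allow.

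The other probe sets of Slc1a3 did not show this difference. Probe set 1426340_at measured 479, 458 and 611 across WT arrays against 526, 559 and 452 across Oa1-/- arrays, with a log2 change of −0.00348 and an interval from −0.34 to 0.33. WT replicate 3 was its highest array and Oa1-/- replicate 3 its lowest. Probe set 1426341_at gave WT signals of 160, 172 and 136, and Oa1-/- signals of 155, 143 and 154, a log2 change of −0.04. Probe set 1452031_at measured 820, 613 and 609 across WT arrays against 545, 636 and 980 across Oa1-/- arrays, a log2 change of 0.05 whose interval ran from −0.45 to 0.54. The Oa1-/- arrays spanned a wider range there than the WT arrays did. The suffix _x_at marks probes that may also bind other transcripts, so 1443749_x_at need not report on Slc1a3 alone. Averaged over its 4 tested probe sets, Slc1a3 had a log2 change of 0.08 (unadjusted p = 0.443 in limma). The remaining probe sets, 1439072_at and 1440491_at, were dim, at 76.6 ± 30.1 and 76.0 ± 30.4 (SD, n = 3) in WT against 66.6 ± 50.0 and 48.5 ± 18.7 in Oa1-/-. Their groups overlapped.

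Pdgfra encodes the receptor through which platelet-derived growth factor A acts on astrocyte precursors. Its probe sets 1421917_at and 1438946_at were lower in the mean of Oa1-/-, though neither passed. Its dimmest probe set is described apart, because the brightness limit bears on its direction. The brightest, 1421917_at, gave WT signals of 3150, 2824 and 2311, and Oa1-/- signals of 2636, 2259 and 2406. WT replicates 1 and 2 were the highest arrays, and WT replicate 3 lay among the Oa1-/- arrays. The log2 change was −0.17 with an interval from −0.45 to 0.10 (unadjusted p = 0.191, adjusted p = 0.985 in limma). Without WT replicate 1 it was −0.07, and without WT replicate 3 it was −0.29 (unadjusted p = 0.0193, adjusted p = 0.911). On probe set 1438946_at the signals were 138, 189 and 158 in WT against 165, 117 and 169 in Oa1-/-, a log2 change of −0.10. Its change was 0.05 without Oa1-/- replicate 2, the array with the lowest value.

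The dimmest Pdgfra probe set passed the brightness limit only through its WT arrays, since its Oa1-/- mean lay below it. Probe set 1421916_at measured 118, 112 and 77.1 across WT arrays against 52.9, 33.5 and 94.8 across Oa1-/- arrays. Oa1-/- replicate 3 lay among the WT arrays, and the other Oa1-/- arrays lay below them. The log2 change was −0.69, given as a description because the limit bears on it. Without Oa1-/- replicate 2 it was −0.42, and without Oa1-/- replicate 3 it was −0.999. The scale used understates a change at such low signals.

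Periocular mesenchyme also carries Pdgfra, and most of its markers had a negative log2 change too. Of 16 mesenchyme markers tested, 14 had a negative log2 change and 5 had an unadjusted p below 0.05, all lower in Oa1-/-, beside 1.97% lower at that p over the brightest probe sets of all genes. None passed after adjustment. The summed signal of the list ran from 86068 to 105480 on the WT arrays and from 90039 to 95975 on the Oa1-/- arrays, and no marker was at 0. The part of mesenchyme in the Pdgfra values was not tested.

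The ligands and partner receptors of Pdgfra gave no call either. Pdgfa, its ligand in the retina, gave WT signals of 1094, 933 and 832, and Oa1-/- signals of 846, 836 and 760, with overlapping groups and a log2 change of −0.22 (unadjusted p = 0.108 in limma). Pdgfrb, the related receptor of pericytes, had a log2 change of −0.16. Of 14 tested genes of the PDGF, LIF and EGF pathways, 0 had an unadjusted p below 0.05, and the log2 change was positive for 4 and negative for 10 (median −0.04).

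**Figure D2:**
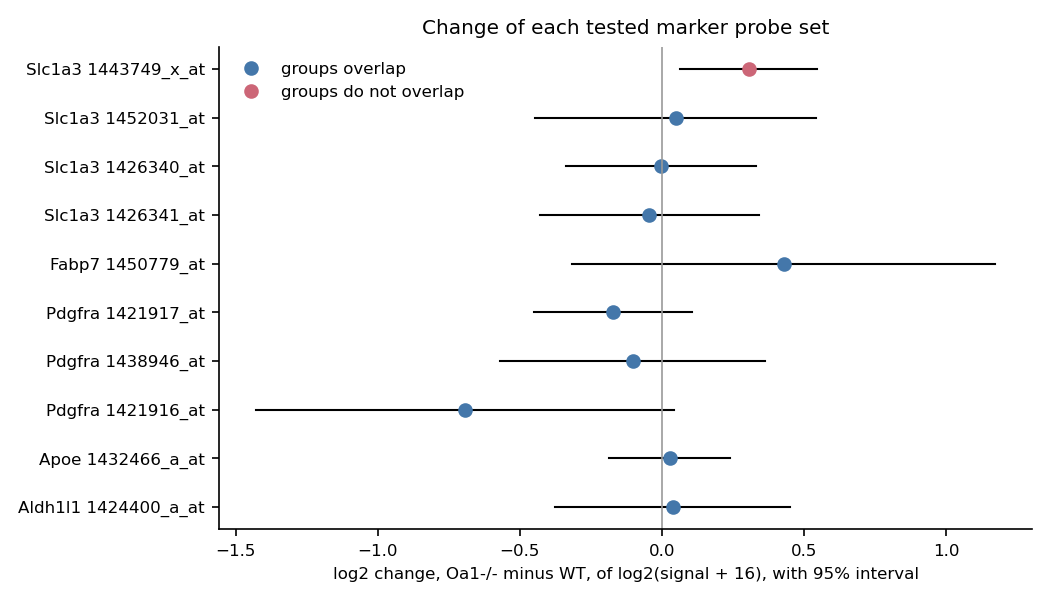
Log2 change (Oa1-/- minus WT, of log2(signal + 16)) of each tested marker probe set, with its 95% interval from limma as a line. The intervals of 9 probe sets include 0, and the exception is Slc1a3 1443749_x_at (0.06 to 0.55).

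Apoe and Aldh1l1 had small log2 changes on their tested probe sets. Apoe, a lipid carrier secreted by astrocytes and macrophages, measured 2722, 3120 and 3022 across WT arrays against 3321, 2885 and 2836 across Oa1-/- arrays. The groups overlapped widely, and the means were 2955 ± 207 (SD, n = 3) and 3014 ± 267 (SD, n = 3). The log2 change was 0.03 with an interval from −0.19 to 0.24. Macrophage and microglia markers, which share this source, summed to between 5265 and 5718 on the WT arrays and to between 5282 and 5491 on the Oa1-/- arrays. Of 13 tested, 0 had an unadjusted p below 0.05. The lipoprotein receptor Lrp1 had a log2 change of −0.27 and the lipid exporter Abca1 one of −0.22, with unadjusted p of 0.0733 and 0.122 in limma.

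Aldh1l1, a folate enzyme that labels astrocytes as a class, gave WT signals of 103, 121 and 126, and Oa1-/- signals of 115, 114 and 132 on 1424400_a_at. The values interleaved, with a log2 change of 0.04 and an interval from −0.37 to 0.45. Its other probe set, 1424401_at, lay at 15.1 ± 8.21 (SD, n = 3) for WT against 16.8 ± 7.68 (SD, n = 3) for Oa1-/-. Only Oa1-/- replicate 1 exceeded the background there.

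The background was judged from bacterial control probe sets, for which no RNA should be present. The highest of these 27 controls read between 22.1 and 39.3 on the individual arrays. The 10 tested marker probe sets exceeded it on all 6 arrays. Of the 12 dim probe sets, 3 did so and 9 did not exceed it on at least 1 array. No detection calls were at hand, and a probe set near this level cannot be called absent.

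Gfap, the intermediate filament protein that is the classical astrocyte marker, had 3 probe sets. The brightest, 1426508_at, measured 69.9, 64.1 and 71.5 across WT arrays against 47.8, 28.2 and 84.1 across Oa1-/- arrays. WT values lay close together, while those of Oa1-/- ran from below to above them. The other probe sets lay at or under the controls on most arrays, with WT means of 23.8 and 16.9 and Oa1-/- means of 13.4 and 19.5. Of the other filament genes of neural cells, Vim, carried by precursors and mesenchyme, read 14511 ± 117 (SD, n = 3) and 13891 ± 686 (SD, n = 3), and Nes, a filament of neural progenitors, 1288 ± 130 and 1187 ± 171. Ina, an axonal filament, had a log2 change of 0.22 and Synm one of −0.17, while Synm probe set 1455610_at had 0.30 with groups that did not overlap.

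Aqp4, the water channel of astrocyte end-feet, was also low on all 3 of its probe sets. Probe set 1434449_at gave WT signals of 40.7, 71.7 and 30.7, and Oa1-/- signals of 53.7, 26.4 and 74.7. On probe set 1447745_at they were 53.3, 34.4 and 65.6 against 64.9, 6.85 and 69.2. Oa1-/- replicate 2 was the lowest array on both, as it was for Gfap 1426508_at. On 1425382_a_at only WT replicate 3 and Oa1-/- replicate 1 exceeded their controls. Of 6 tested genes of other aquaporins and of the dystroglycan complex that anchors Aqp4, 0 had an unadjusted p below 0.05. Dtna, alpha-dystrobrevin, came nearest, at 218 ± 22.4 (SD, n = 3) for WT against 166 ± 21.9 (SD, n = 3) for Oa1-/- with no overlap (log2 change −0.37, unadjusted p = 0.0614 in limma). On another Dtna probe set, 1425292_at, the log2 change was 0.27, also without overlap, so its probe sets disagreed in direction. Dag1, dystroglycan, had log2 changes of −0.13 (unadjusted p = 0.152 in limma), −0.14, −0.24 and −0.17 on its 4 probe sets, and on 2 of them the groups did not overlap.

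S100b, a calcium-binding protein of astrocytes and Schwann cells, measured 37.0, 40.9 and 66.1 across WT arrays against 42.8, 45.5 and 47.0 across Oa1-/- arrays on 1434342_at. The Oa1-/- values fell inside the WT range. On 1419383_at no array exceeded its highest bacterial control, with means of 5.89 and 12.7. Olig1, a transcription factor of glial and oligodendrocyte precursors, gave WT signals of 20.1, 40.5 and 33.7, and Oa1-/- signals of 36.8, 34.9 and 30.3, and it exceeded the controls on 4 arrays. Its partner Olig2 was bright enough to test, with overlapping groups, at 302 ± 105 (SD, n = 3) and 263 ± 26.6 (SD, n = 3). None of the 12 dim marker probe sets had groups that did not overlap, and their smallest two-sided exact permutation p was 0.3. When all probe sets were tested with no filter, 1 of 22 marker probe sets had an unadjusted p below 0.05 in limma, the same Slc1a3 probe set. Over all probe sets that passed the filter, 4.11% had such a p and 10.2% had separate groups. No share is given without the filter, so these counts are a description only.

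**Figure D3:**
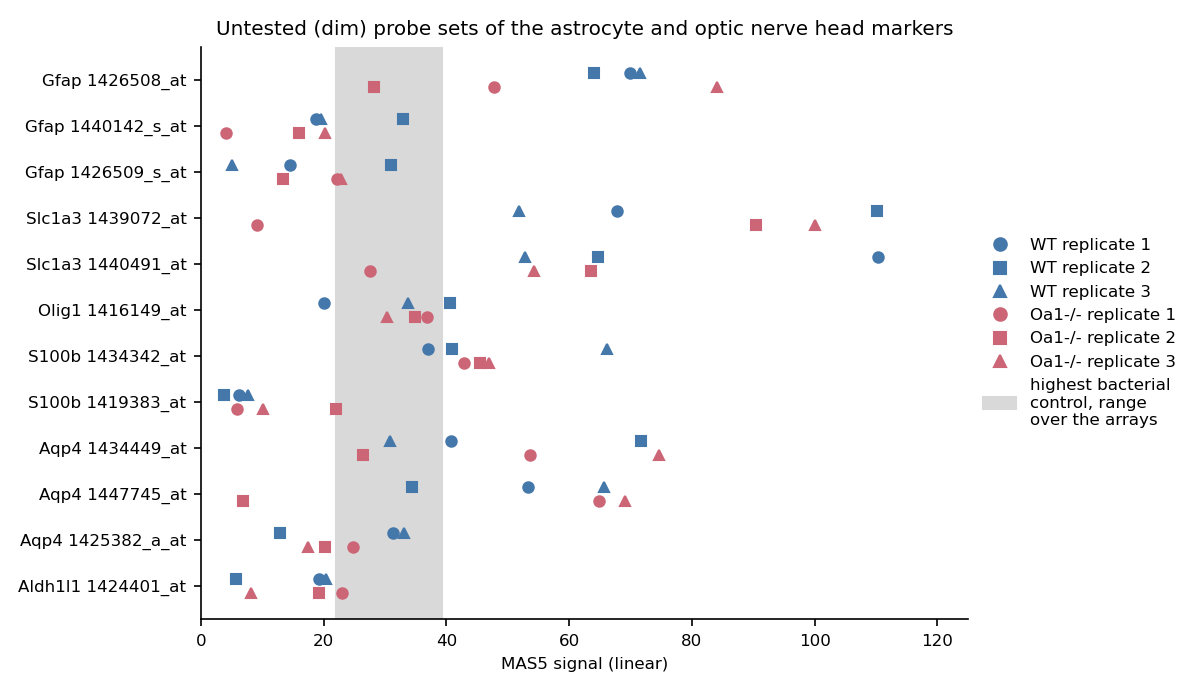
MAS5 signal (linear scale) of the 12 marker probe sets that were too dim to test, with WT arrays in blue and Oa1-/- arrays in red. The grey band spans the highest bacterial control of the individual arrays, 22.1 to 39.3, and all values of S100b 1419383_at lie under it.

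A wider list of genes that later astrocytes carry, several of them shared with other cells, gave no call. Of 25 genes of later astrocytes with a probe set, 18 were bright enough to test on their brightest probe set, and 2 stayed under the bacterial controls on all arrays. The log2 change was positive for 9 and negative for 9 of the 18 (median −0.00961), and 0 had an unadjusted p below 0.05. Slc1a2, the glutamate transporter GLT-1 of mature astrocytes, read 353 ± 34.2 (SD, n = 3) for WT against 370 ± 36.7 (SD, n = 3) for Oa1-/-. Glul, glutamine synthetase of Müller glia and astrocytes, read 5441 ± 1113 and 5869 ± 621, and Gja1, connexin 43, 11739 ± 775 and 11257 ± 805. Mfge8, a secreted bridging protein, and Dio2, a deiodinase, had the smallest p in the list, with log2 changes of −0.18 and 0.30 (unadjusted p = 0.161 and 0.305 in limma).

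Oligodendrocyte and Schwann cell genes gave no call. Of 9 oligodendrocyte lineage genes tested, the log2 change was positive for 3 and negative for 6, and of 6 Schwann cell and neural crest glia genes 4 were positive and 2 negative, with 0 below an unadjusted p of 0.05 in either list. Sox10, a factor of both lineages, read 189 ± 42.8 (SD, n = 3) and 187 ± 14.4 (SD, n = 3). Log2 changes were −0.27 for Myrf, a regulator of myelin genes (unadjusted p = 0.0601), −0.23 for the myelin junction gene Cldn11, −0.30 for the neural crest factor Tfap2a and −0.12 for the neuregulin receptor Erbb3. In the S100 family 0 of 7 tested genes had an unadjusted p below 0.05, with S100a1 at 0.28 and the S100 receptor Ager at −0.72 (unadjusted p = 0.0760 in limma).

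Genes of the optic stalk and disc and of glial precursors held most of the small unadjusted p-values. Over all glial and pathway lists, 124 genes other than the markers were tested on their brightest probe set, and 0 passed after adjustment. At an unadjusted p below 0.05 there were 8, or 6.45%, beside 3.65% of the brightest probe sets of all genes. Of these, 4 were higher in Oa1-/- (Shh, Ndp, Pax6 and Id1) and 4 lower (Nfix, Efna5, Cd44 and Rxrb). The lists were chosen with earlier results of these data known, so the share is a description.

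Shh, the hedgehog ligand that retinal ganglion cells send to optic disc cells and astrocyte precursors, measured 594, 482 and 438 across WT arrays against 779, 683 and 693 across Oa1-/- arrays. All Oa1-/- arrays lay above all WT arrays, with a log2 change of 0.51 and an interval from 0.19 to 0.82 (unadjusted p = 0.00540, adjusted p = 0.985 in limma). The signal of a second, dim probe set of Shh (1427571_at) averaged 23.5 for WT and 12.5 for Oa1-/-, near the background. Ndp, which encodes norrin, a secreted Frizzled ligand needed by retinal vessels, gave WT signals of 96.4, 117 and 103, and Oa1-/- signals of 169, 139 and 158 (log2 change 0.50, unadjusted p = 0.0223 in limma), again with no overlap. Pax6, the eye field factor that opposes Pax2 at the border of stalk and cup, had a log2 change of 0.16, beside 0.14, 0.06 and −0.08 on its other tested probe sets. Retinal ganglion cell markers, the cells that send Shh, had 4 of 13 with an unadjusted p below 0.05, all higher, beside 1.68% of brightest probe sets, and summed to between 59881 and 62973 in WT and to between 64912 and 71293 in Oa1-/-. Their part in the Shh and Ndp values was not tested. Vax1, a factor of the optic stalk, had a log2 change of −0.29 (interval −0.72 to 0.15) and Ntn1, the guidance cue at the optic disc, one of −0.07 (interval −0.29 to 0.15).

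Among glial precursor genes, 24 were tested, with 8 positive and 16 negative log2 changes. Nfix, a nuclear factor I gene of gliogenesis, measured 1921, 1846 and 2256 across WT arrays against 1447, 1280 and 1664 across Oa1-/- arrays, so the groups did not overlap (log2 change −0.45, unadjusted p = 0.00511, adjusted p = 0.985 in limma). Its other tested probe sets were also lower in the mean of Oa1-/-, with log2 changes of −0.54 on 1436364_x_at and −0.21 on 1423493_a_at. Id1, an inhibitor of basic helix-loop-helix factors, read 2092 ± 51.8 (SD, n = 3) and 2531 ± 328 (SD, n = 3), a log2 change of 0.27. The log2 changes of Sox2 and Sox9, factors of progenitors and glia, were 0.01 and 0.02. Genes of Müller glia had 6 positive and 2 negative log2 changes of 8 tested, and the only unadjusted p below 0.05 there was that of Slc1a3 1443749_x_at.

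**Figure D4:**
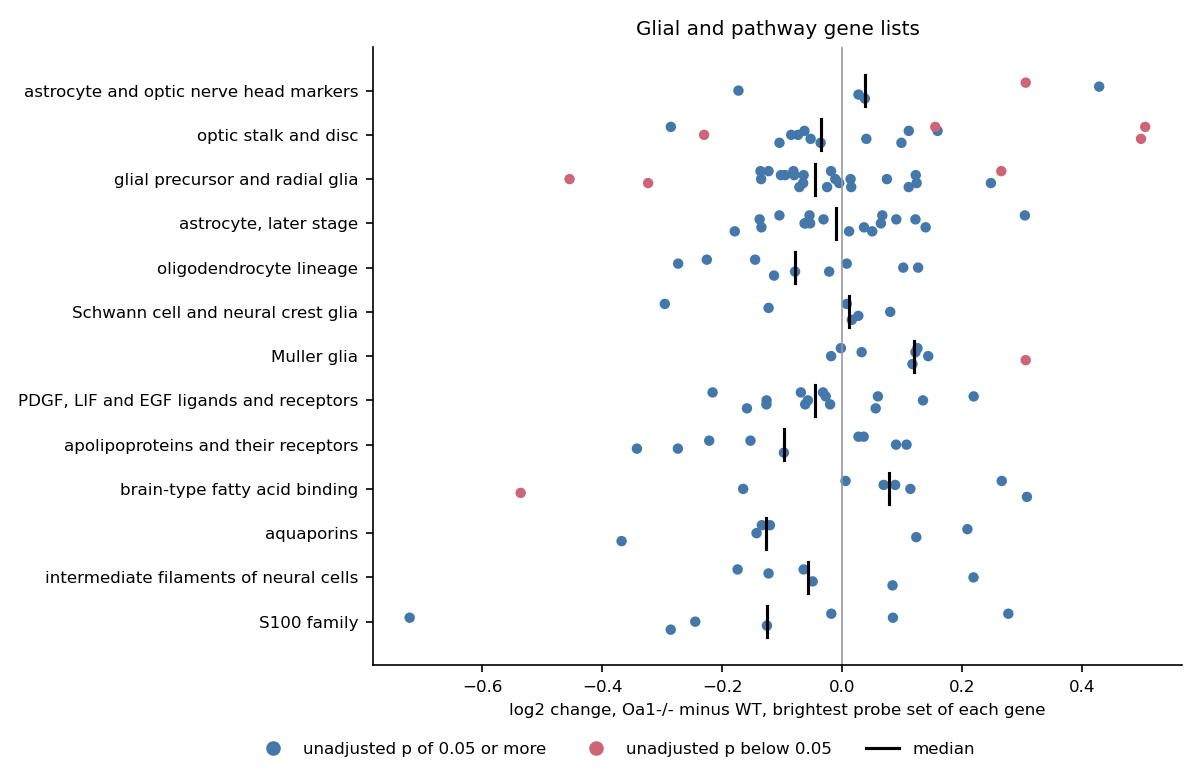
Log2 change (Oa1-/- minus WT) of the brightest probe set of each tested gene in the marker set and in the glial and pathway lists, with red points for an unadjusted limma p below 0.05 and a black line at each median. Red points stand on both sides of 0, and no gene passed after adjustment.

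The array that stood lowest or highest was not the same for all markers. Over the 10 tested probe sets, the median deviation from the mean of all arrays was −0.11, 0.05 and 0.02 (log2) on the WT arrays and 0.04, −0.07 and 0.10 on the Oa1-/- arrays. WT replicate 1 was lowest, and it gave the lowest signal of Fabp7, Apoe, Slc1a3 1443749_x_at and Aldh1l1 1424400_a_at but the highest of Pdgfra 1421917_at and 1421916_at. Leaving out 1 array therefore moved the counts. The number of marker probe sets with an unadjusted p below 0.05 was 0 without WT replicate 1, 3 without WT replicate 3 (Fabp7 and 2 of Pdgfra, without Slc1a3), 0 without Oa1-/- replicate 2 and 2 without Oa1-/- replicate 3, and 0 passed after adjustment in each case. Pdgfra 1421916_at, which passed the brightness limit only through its WT arrays, is among the 3 and among the 2. No share over all probe sets is given for these fits, so the counts are not a result about the markers.

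**Figure D5:**
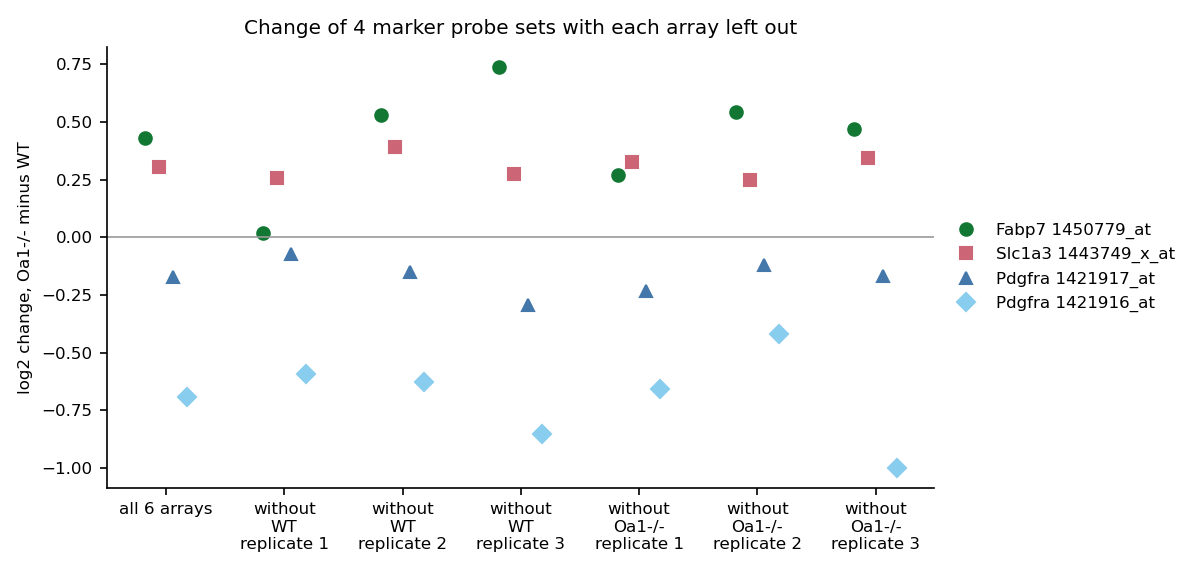
Log2 change (Oa1-/- minus WT) of 4 marker probe sets with all arrays and with each array left out in turn. Fabp7 runs from 0.02 without WT replicate 1 to 0.74 without WT replicate 3, while Slc1a3 1443749_x_at stays between 0.25 and 0.39.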

How the data were processed

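The authors deposited 1 table of signal intensities on a linear scale, and per the submitters' processing notes MAS5 produced them. The values show that each array was scaled to a trimmed mean of 500.002 (2% trimmed at each end). Probe sets were named from GEO's platform annotation (34945 with 1 symbol, 932 with several, 9160 with none). Symbols were updated through Entrez identifiers in a RefSeq gene table (GRCm38.p6), which changed 0. Signals were analysed as log2(signal + 16), without further normalization. Control probe sets and probe sets with a mean at or below the 40th percentile were left out. Oa1-/- minus WT was fitted over 27029 probe sets in R 4.3.3 with limma 3.58.1 (intensity trend), two-sided, with Benjamini-Hochberg adjustment and a threshold of 0.05. The code was tested on simulated data. The precision is limited by 3 arrays per group. Replicates are litters of separate dams.

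All marker probe sets are given. From each other list except those of unrelated cell types, up to 4 genes with an unadjusted p below 0.05 and no overlap were named, or else the 2 with the smallest p. Other context genes (such as Vim, Nes, Sox2, Sox9, Sox10, Olig2, Slc1a2, Glul, Gja1, Vax1, Ntn1 and Cd44) were named after their values were seen. The markers and lists were chosen with earlier results of these data known. Alternatives changed the pseudocount, filter, scaling or variance model, weighted the arrays, blocked on replicate number, dropped _s_at and _x_at probe sets, averaged a gene's probe sets, or left out each array in turn.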

Additional observations from a re-analysis of the deposited data

How the results depend on the processing

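In 143 of 160 alternative values a tested marker probe set kept its direction, and 0 had an adjusted p below 0.05. The count of marker probe sets with an unadjusted p below 0.05 was 1. It became 2 with quantile normalization, 4 with array weights, and 0 to 3 with 1 array left out. With probe sets of 1 transcript group it was 0, but that setting drops Slc1a3 1443749_x_at, so the loss was fixed in advance. Array weights added the 3 Pdgfra probe sets. With median centring the count stayed at 1, but the probe set was Pdgfra 1421916_at in place of Slc1a3 1443749_x_at. Pdgfra 1421916_at was also in the counts for quantile normalization and array weights. It passed the brightness limit only through its WT arrays, so its place in these counts is no support for a difference. Over the whole array, 2 probe sets passed after adjustment with median centring (Gpr143 and Kantr) and 2 with array weights (Kantr and Slc25a29). None of them was a marker. Whether Gpr143 itself was called thus depended on the scaling. Of the genes in the other lists, 8 had an unadjusted p below 0.05, with 5 under median centring, 24 under array weights and 4 to 10 with 1 array left out. Those list counts were added after seeing the data. No share over all probe sets at an unadjusted p is given for the alternatives. The marker and list counts are therefore not read as results about those genes.

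Reversed values ran from −0.19 (Slc1a3 1452031_at without Oa1-/- replicate 3) to 0.15 (Slc1a3 1426340_at with array weights). Slc1a3 1426340_at turned to 0.0275 with quantile normalization, 0.0276 with median centring, 0.15 with array weights, and ran from −0.0807 to 0.12 with 1 array left out. Apoe turned to −0.0592 with array weights and ran from −0.0441 to 0.0692 with 1 array left out. Aldh1l1 1424400_a_at turned to −0.0145 with array weights and ran from −0.0380 to 0.0891. With 1 array left out, Slc1a3 1452031_at ran from −0.19 to 0.22, Slc1a3 1426341_at from −0.13 to 0.0235 and Pdgfra 1438946_at from −0.20 to 0.0492. The cause was not tested. The replicate block left the count of calls at 0 and the unadjusted count at 1. Deviations of same-numbered arrays from their group means correlated at −0.29, 0.15 and −0.25. Centring on the means of 3 arrays ties such correlations to each other, so they cannot decide whether the numbers pair the arrays.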
